A study of Mus musculus with 4 samples.

Results

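The genes of the Myc and Max network were followed in sorted kidney cells of control and *Eya1* conditional knockout (*Eya1*cKO) mouse embryos. The network was represented by 10 genes, *Myc*, *Mycn*, *Mycl*, *Max*, *Mxi1*, *Mxd1*, *Mxd3*, *Mxd4*, *Mnt* and *Mga*, which were taken by symbol from the 52636 gene identifiers in the count tables. *Eya1* encodes a transcriptional coactivator of nephron progenitor cells (NPCs), and the comparison asked which transcripts change when it is removed. Control kidneys were heterozygous for *Eya1CreER* (*Eya1CreER/+*) and carried the tdTomato reporter. *Eya1*cKO kidneys carried *Eya1CreER/+*, tdTomato and floxed *Eya1* (*Eya1* fl/fl). The CreER allele, the reporter and the tamoxifen were thus common to both genotypes. The embryos were of a mixed C57BL/6J and 129/Sv background and were collected at E12.5 to E12.75, around 48 h after tamoxifen was started. CreER is made where *Eya1* is active, so the tdTomato+ cells that were sorted are the descendants of *Eya1*-expressing cells, and recombination of the floxed alleles does not have to be complete in every one of them. Each genotype gave 2 libraries of 5000 sorted cells. These were portions of combined cell suspensions, sorted at the same time, so P-values measure the spread between these libraries and not between animals.

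Reads counted on genes ranged from 17457452 to 37999342 per library, with both control libraries deeper than both *Eya1*cKO libraries. All 10 genes had at least 323 reads in every library and all 10 passed the filter on low counts, which kept 19041 genes. *Eya1* itself had 6612 and 6420 reads in the control libraries and 377 and 219 reads in the *Eya1*cKO libraries (log2 fold change -3.60, SE 0.18, adjusted P = 1.9e-04 in edgeR). The marker genes of the sorted cells shifted with genotype. In counts of genes, fell and rose mean an adjusted P under 0.05 in edgeR. Of all genes tested, 4.41% fell and 5.15% rose. All 7 NPC markers fell, among them *Six2* and *Uncx*. So did 4 of 5 markers of the early nephron (*Lhx1*, *Wnt4*) and 2 of 5 of the ureteric bud (*Calb1*, *Ret*). All 5 early nephron and all 5 ureteric bud markers were lower in both *Eya1*cKO libraries than in both control libraries. Of all genes, 30.0% were. All 5 podocyte markers rose (*Podxl*, *Nphs1*), as did 6 of 7 of renal stroma (*Col3a1*, *Postn*) and all 8 of endothelium (*Tie1*, *Cdh5*). All 7 stroma markers were higher in both *Eya1*cKO libraries than in both control libraries, where 25.3% of all genes were. The 6 adrenal cortex markers, among them *Hsd3b1* and *Cyp21a1*, summed to between 11.4 and 18.7 CPM in the control libraries and to between 653 and 677 CPM in *Eya1*cKO. The 7 sympathoadrenal markers, among them *Chga* and *Th*, summed to between 3.63 and 4.07 CPM and to between 366 and 407 CPM. All 13 genes of these lists rose. Of 3 Schwann cell and neural crest markers tested, 1 rose (*Sox10*), and the blood markers *Ptprc* and *Csf1r* had log2 fold changes of -0.19 and 0.19. In bulk RNA, fewer cells of a type and less RNA per cell cannot be told apart, and the part of these shifts in the results that follow was not tested.

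Myc, Mycn and Mycl are transcription factors of the basic helix-loop-helix leucine zipper class that bind DNA as dimers with Max. The dimers sit on E-box sequences, recruit coactivators and raise the transcription of genes for ribosome production, nucleotide synthesis and cell division. The Mxd proteins, Mxi1, Mnt and Mga pair with the same Max protein and bring corepressors to the same kind of site, so the network is often described as a balance between activating and repressing dimers. Mxd proteins are known for rising as cells leave the cell cycle and differentiate. In the kidney, *Mycn* is known for its part in the growth of the progenitor pool, and Eya1 has been described as a partner of Six2 and Myc in nephron progenitors.

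The promoters of 4 members are shown because 2 of these genes, *Mycn* and *Mxd4*, were the members that changed in expression, and because *Mxd4*, *Max* and *Mnt* carry the E-box letters CACGTG, the canonical site of Max dimers, close to their start. The sequences are RefSeq windows on GRCm38.p6, written 5′ to 3′ on the strand of the gene, from 250 bases before the annotated start to 50 bases into the transcript for *Mycn* (chr12:12941787-12942086, minus strand) and *Mxd4* (chr5:34187661-34187960, minus strand). For *Max* (chr12:76962219-76962278, minus strand) and *Mnt* (chr11:74830774-74830833, plus strand) only the 60 bases around the motif are given. Capitals mark CACGTG and, in *Mycn*, the E2F-type letters TTTGGCGC and TTTCGCGC read on either strand.
Mycn: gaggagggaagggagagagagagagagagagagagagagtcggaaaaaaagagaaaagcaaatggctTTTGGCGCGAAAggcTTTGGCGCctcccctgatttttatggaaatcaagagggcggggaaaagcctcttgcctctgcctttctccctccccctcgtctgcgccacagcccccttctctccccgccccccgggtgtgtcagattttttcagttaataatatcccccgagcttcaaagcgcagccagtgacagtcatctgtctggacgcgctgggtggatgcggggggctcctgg
Mxd4: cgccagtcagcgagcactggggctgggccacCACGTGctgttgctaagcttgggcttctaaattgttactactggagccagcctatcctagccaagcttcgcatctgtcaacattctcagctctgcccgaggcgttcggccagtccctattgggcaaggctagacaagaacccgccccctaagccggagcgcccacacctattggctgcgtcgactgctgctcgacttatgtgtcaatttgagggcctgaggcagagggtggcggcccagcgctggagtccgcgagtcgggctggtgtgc
Max: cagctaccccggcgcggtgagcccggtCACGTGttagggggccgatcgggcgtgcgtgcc
Mnt: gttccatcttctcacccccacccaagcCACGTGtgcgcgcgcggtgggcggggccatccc

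CACGTG, which reads the same on both strands, begins 219 bases before the RefSeq start of *Mxd4*, 123 bases before that of *Mnt* and 3 bases before that of *Max*. The GENCODE starts, which the gene coordinates in the text follow, lie 78 bases upstream of the RefSeq start for *Mycn*, 10 for *Mxd4* and 4 for *Mnt*, and 47 bases downstream of it for *Max*, so distances to them differ by as much. Of the 10 genes, 9 had a window, 11 windows in all, and 3 of the 11 (27.3%) held these letters. Of all 32851 windows of 300 bases, 2349 (7.15%) held them. The windows of *Mycn*, *Mycl*, *Mxi1*, *Mxd1*, *Mxd3* and *Mga* did not hold them. The *Mycn* window held 3 matches to the E2F-type letters, beginning 183, 179 and 168 bases before the RefSeq start, of which the first and second overlap on opposite strands. At least 1 such match was present in 267 of all windows (0.813%) and at least 2 in 8 (0.0244%). The E2F-type letters were searched for after the *Mycn* window had been read. These matches describe the letters and are no evidence of binding.

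Levels of the 10 genes were compared with each other per kilobase of exon (CPM per kb, where CPM are counts scaled to the library total). In the control libraries *Mycn* was highest, at 30.6 ± 1.64 CPM per kb (SD, n = 2 libraries here and for every mean that follows), followed by *Myc* at 24.8 ± 1.29 and *Mnt* at 20.2 ± 0.208. *Max*, *Mga* and *Mxd4* came next, between 15.2 and 15.9 CPM per kb, and neighbours among these 3 genes overlapped between libraries. *Mxi1*, *Mxd3*, *Mxd1* and *Mycl* were lowest, from 8.92 down to 5.35 CPM per kb, each clear of its neighbour. In *Eya1*cKO *Mxd4* was highest, at 23.2 ± 2.37 CPM per kb, followed by *Mnt* at 18.8 ± 0.738, *Myc* at 17.4 ± 0.395 and *Mycn* at 14.4 ± 5.24. The *Eya1*cKO libraries of *Myc* and *Mycn* overlapped, as did those of *Mycn* and *Mga* and of *Mga* and *Max*. The order in the middle depends on the length used. With the longest annotated transcript in place of all exons, *Max* was second in both genotypes and overlapped with *Myc*, while *Mycn* stayed first in the control libraries and *Mxd4* first in *Eya1*cKO.

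**Figure D1:**
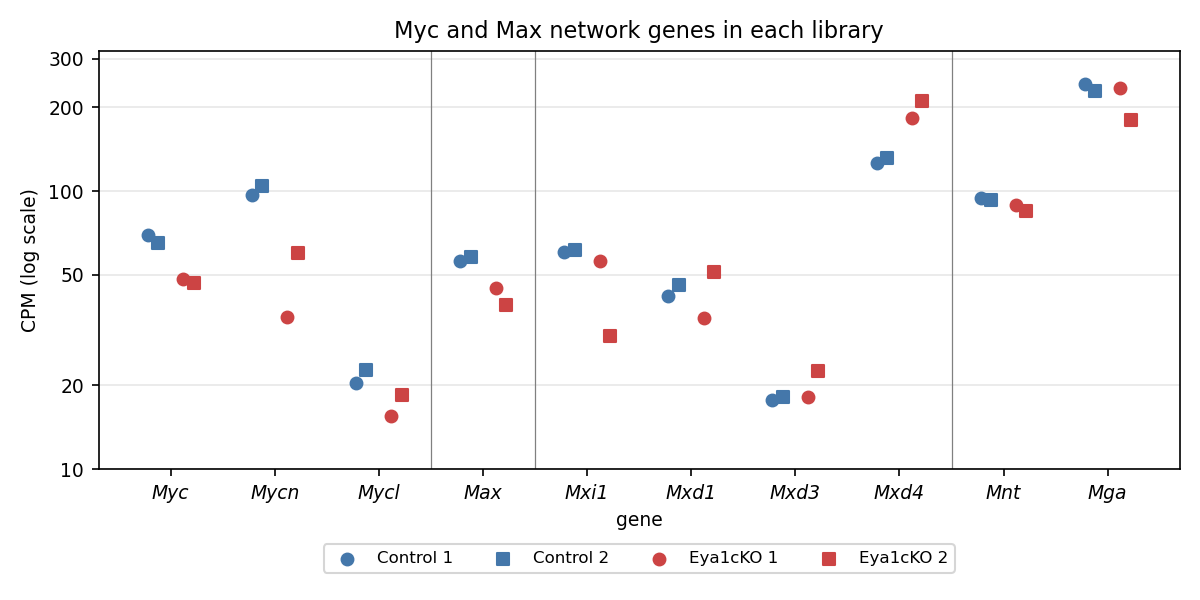
Levels of the 10 genes in each library, in CPM on a log scale, with control libraries in blue, *Eya1*cKO libraries in red and vertical lines between the Myc genes, *Max*, the Mxd genes and the other repressors. *Mycn* lies at 96.9 and 105 CPM in the control libraries and at 35.4 and 59.8 CPM in *Eya1*cKO, and *Mxd4* at 126 and 132 CPM against 183 and 211 CPM.

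Of the 10 genes, 1 fell (*Mycn*) and 1 rose (*Mxd4*) at an adjusted P under 0.05, which is 20% of the members. Of all 19041 genes tested, 9.56% passed, with 4.41% lower and 5.15% higher in *Eya1*cKO, and with 10 members each gene moves the share by 10 percentage points. These shares, here and beside the lists below, cover genes of all read depths that passed the filter. In a fit of the 14490 genes with at least 10 counts in every library, 15.5% passed, and 2 members did. The log2 fold change was negative for 8 of the 10 genes, with a median of -0.27 against 0.02 over all genes. For 6 genes each *Eya1*cKO library was below each control library and for 2 genes above, and the genotypes overlapped for *Mxd1* and *Mga*. Over all genes the libraries lay apart for 55.3%, made up of 30.0% that were lower and 25.3% that were higher in *Eya1*cKO.

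The 3 Myc genes were all lower in both *Eya1*cKO libraries than in both control libraries, and *Mycn* passed the test. *Mycn* is on chromosome 12 (12936093 to 12941914, minus strand, GRCm38, as for the other genes). Its counts were 3385 and 3916 in the control libraries and 799 and 1049 in the *Eya1*cKO libraries, in the order of their numbers. In CPM these were 96.9 and 105 against 35.4 and 59.8, so the genotypes did not overlap, and *Eya1*cKO 1 was the lowest library. The log2 fold change was -1.12 (SE 0.22, adjusted P = 0.024 in edgeR), which left 46.0% of the control level. The call was lost without the low-count filter (adjusted P = 0.055), with edgeR's legacy method (0.076) and with a block on the library number (0.065), within a range of 0.0015 to 0.076 over the 9 alternatives on all libraries. *Mycn* also showed the largest spread between the *Eya1*cKO libraries of the 3 Myc genes.

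*Myc*, on chromosome 15 from 61985391 to 61990374, is the founding gene of the family. Its counts were 2438 and 2429 in the control libraries against 1088 and 818 in *Eya1*cKO, or 69.8 and 64.9 CPM against 48.2 and 46.6 CPM. The libraries of each genotype lay close together and apart from those of the other genotype. The log2 fold change of -0.50 (SE 0.15) nevertheless missed the threshold, with an adjusted P of 0.09 and an unadjusted P of 0.013 in edgeR. *Mycl*, on chromosome 4 from 122995652 to 123002485, is the least abundant of the 3 genes. It was at 20.5 and 22.7 CPM in the control libraries and at 15.6 and 18.4 CPM in *Eya1*cKO, and this difference was small against its error (log2 fold change -0.36, SE 0.28, adjusted P = 0.43 in edgeR).

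*Max*, on chromosome 12 from 76937269 to 76962201, encodes the partner that both arms of the network need. Its level was 56.2 and 58.1 CPM in the control libraries and 44.8 and 38.8 CPM in *Eya1*cKO. The genotypes did not overlap, but the log2 fold change of -0.44 (SE 0.17) did not pass (adjusted P = 0.14 in edgeR, unadjusted P = 0.034).

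Of the 4 genes of the Mxd group, which encode repressing partners of Max, *Mxd4* rose and the other 3 did not pass the test. *Mxd4*, on chromosome 5 from 34173883 to 34187720, was counted 4401 and 4933 times in the control libraries and 4130 and 3706 times in the shallower *Eya1*cKO libraries. In CPM these were 126 and 132 against 183 and 211, and the genotypes did not overlap. The log2 fold change was 0.61 (SE 0.11, adjusted P = 0.019 in edgeR), a level 1.52-fold that of the control. This call was lost with the block on the library number (adjusted P = 0.062, within a range of 1.3e-04 to 0.062 over the same alternatives). The exons of *Mxd4* overlap those of the antisense gene *Gm42846* over 514 bases (6.1% of its exonic length), and no read was counted on that gene in any library. As the strand setting of the counting is not known, this does not show that the counts of *Mxd4* were unaffected.

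*Mxi1*, on chromosome 19 from 53310518 to 53375810, encodes a further member of the group that is also called Mxd2. It stood at 60.4 and 61.3 CPM in the control libraries, at 55.9 CPM in *Eya1*cKO 1 and at 30.2 CPM in *Eya1*cKO 2. The first *Eya1*cKO library was close to the controls and the second far below them, and the log2 fold change of -0.46 (SE 0.25) did not pass (adjusted P = 0.28 in edgeR). Without *Eya1*cKO 1 it was -1.02, and without *Eya1*cKO 2 it was -0.14, so the size of this difference depends on which library is used. Exons of *Mxi1* overlap the opposite-strand gene *Gm10197*, which had no reads, over 194 bases (2.8% of the exonic length of *Mxi1*). *Mxd1*, on chromosome 6 from 86647042 to 86669161, had 42.1 and 46.1 CPM in the control libraries and 35.0 and 51.0 CPM in *Eya1*cKO. The *Eya1*cKO libraries of *Mxd1* lay on either side of the controls (log2 fold change -0.07, SE 0.22, adjusted P = 0.88 in edgeR). *Mxd3*, on chromosome 13 from 55325168 to 55329823, is a member of the group that is known for its expression in proliferating progenitors. It was at 17.8 and 18.1 CPM in the control libraries and at 18.2 and 22.5 CPM in *Eya1*cKO, of which the first exceeded the controls only slightly (log2 fold change 0.17, SE 0.28, adjusted P = 0.74 in edgeR). Exons of *Mxd3* overlap the opposite-strand gene *Prelid1* over 105 bases (4.4% of its exonic length). *Prelid1* had 4532 and 5269 reads in the control libraries and 3112 and 3543 in *Eya1*cKO, several times those of *Mxd3*, and the strand setting of the counting is not known.

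The larger repressors *Mnt* and *Mga* showed small differences. *Mnt*, on chromosome 11 from 74830920 to 74845725, encodes a widely expressed antagonist of Myc. It was at 94.2 and 92.9 CPM in the control libraries and at 89.5 and 84.7 CPM in *Eya1*cKO, and although the libraries lay apart, the log2 fold change was -0.10 (SE 0.12, adjusted P = 0.63 in edgeR). *Mga*, on chromosome 2 from 119897228 to 119969581, encodes a very large protein that carries a T-box domain besides the Max-binding one and belongs to a Polycomb-type complex. It had 244 and 230 CPM in the control libraries and 236 and 180 CPM in *Eya1*cKO. *Eya1*cKO 1 fell between the control libraries and *Eya1*cKO 2 below them (log2 fold change -0.18, SE 0.13, adjusted P = 0.40 in edgeR). Without *Eya1*cKO 1 the log2 fold change of *Mga* was -0.40, and without *Eya1*cKO 2 it was -0.02.

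**Figure D2:**
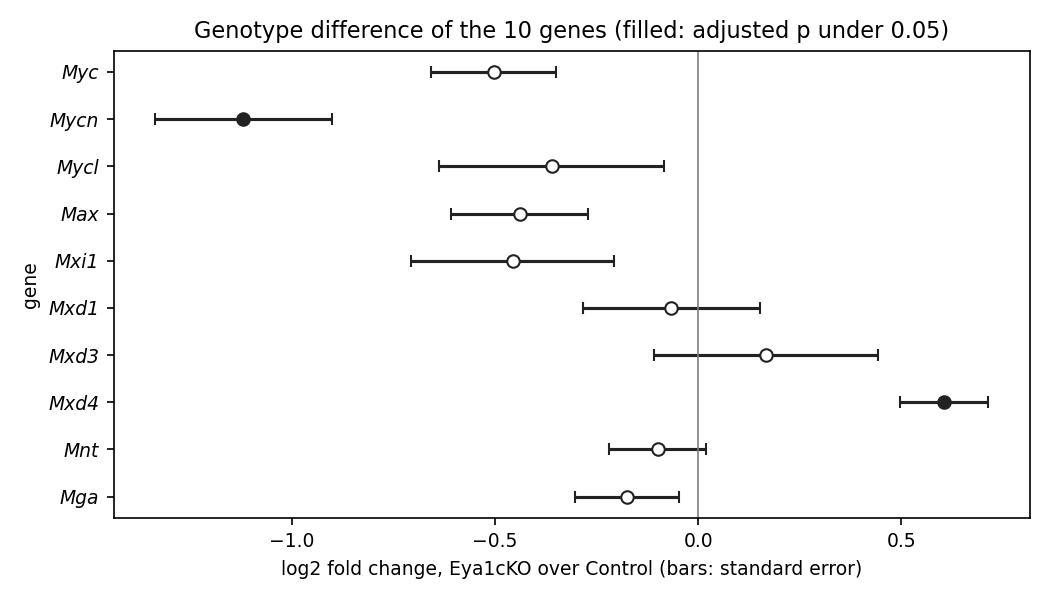
Log2 fold change of each of the 10 genes, *Eya1*cKO over control, with bars for the standard error and filled points for an adjusted P under 0.05 in edgeR. *Mycn* at -1.12 and *Mxd4* at 0.61 are the filled points, at opposite ends of the range.

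Fits that omit 1 library leave 1 genotype with a single library, so their spread comes from the other genotype alone. Without an *Eya1*cKO library it comes from the control pair, the closer of the 2 pairs, and 33.5% (without *Eya1*cKO 1) and 35.3% (without *Eya1*cKO 2) of all genes tested passed. *Mycn* and *Mxd4* were among them in both fits, as was *Myc*, and *Max*, *Mxi1* and *Mga* passed without *Eya1*cKO 1, and little can be read from these calls beside such shares. Without a control library the spread comes from the *Eya1*cKO pair, 23 genes passed in each fit, and neither *Mycn* nor *Mxd4* did (adjusted P = 0.37 and 0.47 for *Mycn* and 0.51 and 0.47 for *Mxd4* in edgeR, without control 1 and without control 2). Over the 4 fits the log2 fold change ran from -1.53 to -0.77 for *Mycn* and from 0.49 to 0.70 for *Mxd4*.

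The summed level of the activating genes was lower in both *Eya1*cKO libraries, and that of the Mxd genes was higher through *Mxd4*. *Myc*, *Mycn* and *Mycl* together had 60.2 and 61.2 CPM per kb in the control libraries and 32.3 and 39.9 CPM per kb in *Eya1*cKO. The 4 Mxd genes together had 37.2 and 38.7 CPM per kb against 42.4 and 46.1 CPM per kb. *Mxd4* alone carries this difference, since the other 3 genes summed to 22.3 and 23.1 CPM per kb in the control libraries and to 20.8 and 21.1 CPM per kb in *Eya1*cKO. The Myc genes therefore stood at 1.60 ± 0.0257 times the Mxd genes in the control libraries and at 0.814 ± 0.0731 times in *Eya1*cKO. With *Mnt* and *Mga* added to the repressors, the ratio was 0.825 ± 0.00734 in the control libraries and 0.472 ± 0.074 in *Eya1*cKO. The libraries of the genotypes did not overlap in either ratio, and each ratio had an exact two-sided permutation P of 0.333, the smallest that 2 against 2 libraries can give. These sums and ratios were formed after the values of the single genes had been seen. With the longest transcript as the length, the first ratio was 1.22 ± 0.0192 and 0.594 ± 0.0507.

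The makeup of the Myc genes was less clear. *Mycn* made up 48.9% and 51.8% of the summed level per kb of the 3 genes in the control libraries, against 33.2% and 45.5% in the *Eya1*cKO libraries. Both *Eya1*cKO libraries were lower, and the difference of means was -11.0 percentage points (exact two-sided permutation P = 0.333, the smallest possible), which moved between -4.84 and -17.1 with the *Eya1*cKO library that was left out. *Myc* made up 42.7% and 39.0% in the control libraries against 54.9% and 43.1%. In *Eya1*cKO 2 *Mycn* was thus still above *Myc* per kb, and in *Eya1*cKO 1 it was below.

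**Figure D3:**
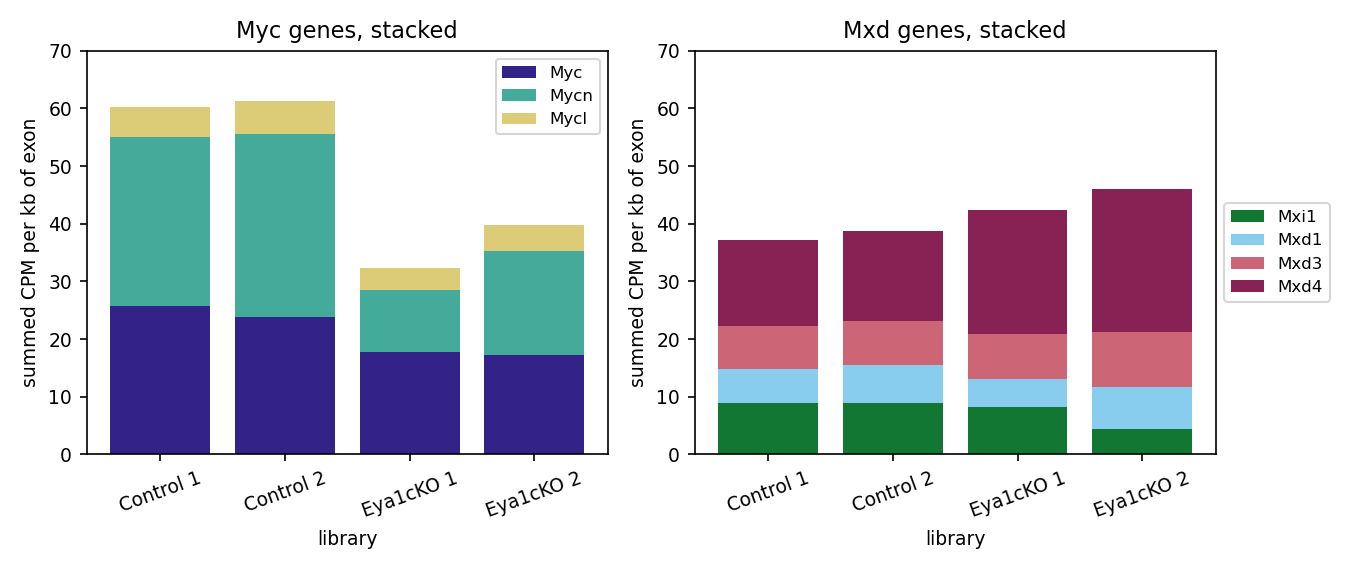
Summed levels per kilobase of exon in each library, with the Myc genes stacked on the left and the Mxd genes on the right, on the same scale from 0. The left stacks reach 60.2 and 61.2 CPM per kb in control and 32.3 and 39.9 in *Eya1*cKO, whereas the right stacks reach 37.2 and 38.7 and then 42.4 and 46.1, with *Mxd4* as the segment that grew most.

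The other genes of the pathway were read from the same test, in lists by role. Genes that Myc is known to induce were lower as a group. Of 30 such targets, 20 (66.7%) fell and 0 rose, where 4.41% of all genes fell (none was higher at an unadjusted P under 0.05 or in DESeq2). With a block on the library number 8 targets passed. The list was chosen with earlier results of these data known, so these counts describe it and are no independent support. The median log2 fold change of the 30 was -0.64, and all 30 were negative, from -1.19 to -0.23. The genotypes did not overlap for 29 of them, against 30.0% of all genes in this direction, with *Impdh2*, named here after its values were seen, as the exception. *Ncl*, which encodes the nucleolar protein nucleolin, went from 1945 and 1985 CPM to 1217 and 1229 CPM (log2 fold change -0.68, SE 0.05, adjusted P = 7.5e-04 in edgeR). *Cad*, which encodes the enzyme that starts pyrimidine synthesis, went from 317 and 315 CPM to 137 and 158 CPM (log2 fold change -1.11, SE 0.10, adjusted P = 0.0016 in edgeR). Both genes were thus lower in each *Eya1*cKO library by several times the spread between libraries. CACGTG was present in 10 of 30 windows (33.3%) of these targets, against 7.15% of all windows. The windows covered 24 of the 30 genes, and 9 genes had the letters. Markers of proliferation moved alongside, with 5 of 8 lower (among them *Top2a* and *Mki67*) and a median of -0.66, and their part in the fall of the targets was not tested. Without control 1 or without control 2, 0 targets passed, with 21 at an unadjusted P under 0.05 each time.

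Of the 7 genes that Myc is known to repress, 6 could be tested, with a median log2 fold change of 0.42. *Gadd45a*, a growth arrest and DNA damage response gene, rose from 33.5 and 34.1 CPM to 69.5 and 64.2 CPM (log2 fold change 0.99, SE 0.16, adjusted P = 0.014 in edgeR). *Gas1*, a growth arrest gene that also encodes a coreceptor for Hedgehog proteins, fell from 259 and 249 CPM to 141 and 148 CPM (log2 fold change -0.82, SE 0.09, adjusted P = 0.0035 in edgeR). Thus 1 gene rose and 1 fell, where 5.15% and 4.41% of all genes did, while 3 were higher and 1 lower at an unadjusted P under 0.05 and 2 were higher and 1 lower in DESeq2. *Cdkn2b* had 0 and 1 reads in the control libraries and 0 and 6 in *Eya1*cKO, too few for the test.

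The proteins that work with the Myc dimers were represented by 15 cofactor genes. Of these 5 (33.3%) fell and 0 rose, where 4.41% of all genes fell (median -0.43, with 0 higher at an unadjusted P under 0.05 and 0 in DESeq2). The count was 3 without the low-count filter, with the legacy method and with the control counts thinned. It was 2 with a block on the library number. *Ep400*, a subunit gene of the NuA4 acetyltransferase complex, fell from 416 and 386 CPM to 279 and 288 CPM (log2 fold change -0.50, SE 0.08, adjusted P = 0.012 in edgeR). Of 15 genes for the turnover of Myc proteins, 14 could be tested, 5 (35.7%) fell and 0 rose, against the same 4.41% (median -0.38, with 0 higher at an unadjusted P under 0.05 and 0 in DESeq2). The count was 3 without the low-count filter, with the legacy method and with the block on the library number. *Set*, which encodes an inhibitor of the phosphatase that destabilizes Myc, had a log2 fold change of -0.73 (adjusted P = 0.0022 in edgeR). *Usp36*, which encodes a nucleolar deubiquitinase that stabilizes Myc, had one of -1.08 (adjusted P = 0.006 in edgeR). *Skp2*, the gene of a ubiquitin ligase subunit that acts on Myc, was listed at 0 in all 4 libraries. A listed count of 0 does not show that the gene is silent, and its reason was not tested.

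The partners of the repressing arm were read in the same way, and 4.41% of all genes fell. Of 10 Sin3 and NCoR corepressor genes, which serve the Mxd proteins and Mnt, 2 fell and 0 rose (median -0.08, with 0 higher at an unadjusted P under 0.05 and 0 in DESeq2). These were the histone deacetylase gene *Hdac2* (log2 fold change -0.52, SE 0.09, adjusted P = 0.016 in edgeR) and the chromatin-binding subunit gene *Rbbp4* (-0.43, adjusted P = 0.022). Of 10 genes of the Mga complex, 2 fell and 0 rose (median -0.26, with 0 higher at an unadjusted P under 0.05 and 0 in DESeq2). They were *Tfdp1*, which encodes a partner of E2F proteins (log2 fold change -0.53, SE 0.10, adjusted P = 0.021 in edgeR), and *Wdr5* (-0.62, adjusted P = 0.025), which is also among the cofactor genes. With a block on the library number, 0 genes of the Mga complex and 1 corepressor gene passed. In the parallel Mlx branch of the network, with *Mlx*, *Mlxip* and *Mlxipl*, 0 of 3 genes passed, while 1 was lower at an unadjusted P under 0.05 and in DESeq2. With 1 library omitted, the calls in the lists other than the induced targets ran from 0 without a control library to 11 without *Eya1*cKO 2, for the turnover genes.

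**Figure D4:**
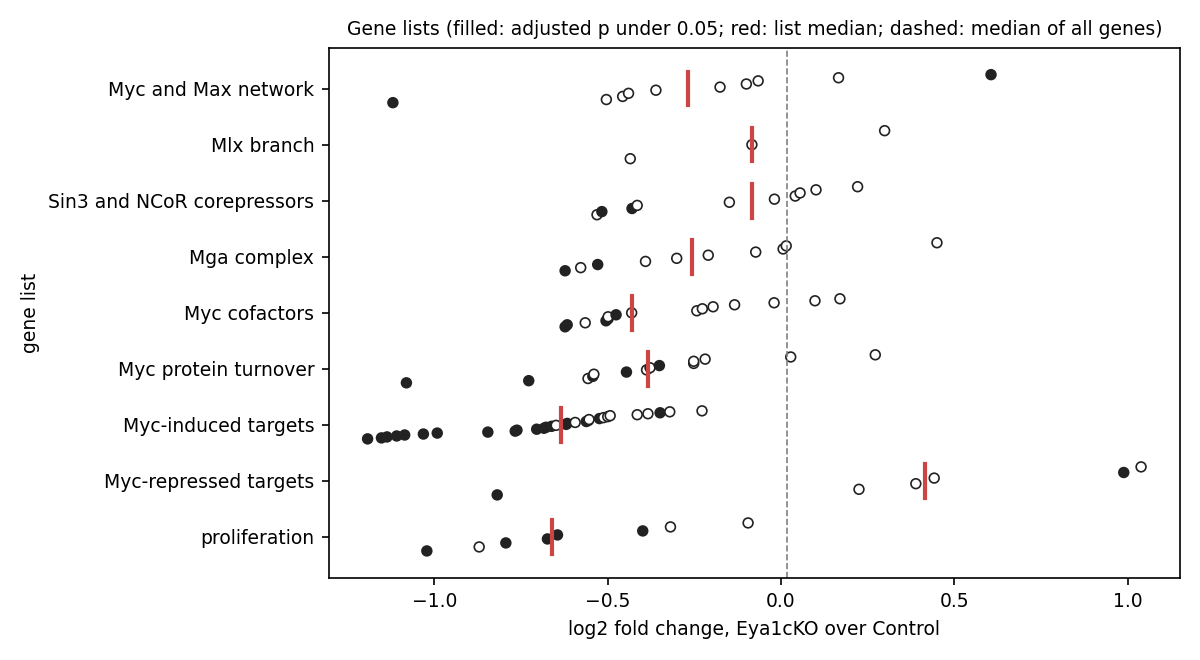
Log2 fold changes of the network genes and of the other lists, 1 point per gene, filled at an adjusted P under 0.05 in edgeR, with the median of each list in red and that of all genes as a dashed line. All points of the Myc-induced targets lie below 0, with a median of -0.64, while the network genes spread from -1.12 to 0.61.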

How the data were processed

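RNA of FACS-sorted tdTomato+ cells from 2 control and 2 *Eya1*cKO libraries was sequenced from random-primed, strand-specific libraries. The authors aligned the reads to mm10 with HISAT2 and counted them with HTSeq on the genes of an Ensembl annotation. The deposited values are these raw counts per gene, and the strand setting of the counting is not given in the sources used here. Rows that name no gene were left out of library totals. Reads on no gene made up between 12.9% and 22.7% of all reads recorded.

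Genotypes were compared in R 4.3.3 with edgeR 4.0.16 (filterByExpr with a minimum count of 10, TMM factors from 0.987 to 1.02, glmQLFit and glmQLFTest, Benjamini-Hochberg adjustment over all 19041 genes tested). SE was obtained by dividing the size of the log2 fold change by the square root of the F statistic. Levels in CPM use the totals of the genes kept, multiplied by the TMM factors. The smallest level that 3 counts can show was between 0.0801 and 0.171 CPM, which covers counting error only. Alternatives included DESeq2 1.42.0, other scalings and filters, a block on the library number, and fits that omit 1 library. Coordinates and lengths came from GENCODE M21 (GRCm38), symbols were matched for 52403 identifiers, and promoter windows came from RefSeq (GRCm38.p6). Of other lists, the 2 genes of smallest P that passed in each direction are named, with any gene without counts, and 1 such gene is not reported here. The members and lists were chosen with earlier results of these data known. Libraries of a genotype differed by more than sampling noise (chi-square over degrees of freedom 9.68 in control and 49.7 in *Eya1*cKO), and all 4 were used.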

Additional observations from a re-analysis of the deposited data

Results flagged for a closer look

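Reads that entered no comparison were more frequent in *Eya1*cKO than in control. Reads recorded on no gene made up 22.7% and 20.9% of all reads recorded in *Eya1*cKO 1 and 2, against 13.9% and 12.9% in control 1 and 2. Reads that were not aligned made up 12.9% and 12.7% in *Eya1*cKO 1 and 2, against 6.32% and 6.69% in control 1 and 2. Their part in the values of the Myc and Max network genes was not tested.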

How the results depend on the processing

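Over 9 alternatives on all libraries and 4 with a library left out, 116 of the 130 log2 fold changes of the 10 genes kept their direction and their side of the threshold, 8 no longer passed, 5 passed in addition and 1 reversed. *Mycn* passed in 6 of the 9 (adjusted P between 0.0015 and 0.076) and *Mxd4* in 8 (between 1.3e-04 and 0.062). *Mycn* missed without the low-count filter (0.055), with the legacy method (0.076) and with the replicate block (0.065), *Mxd4* with the replicate block alone. The count of all genes that passed was 1055 without the low-count filter, 3102 with DESeq2's Wald test and 1096 with the legacy method, and that of the members was 1 without the filter and 1 with the legacy method. Library numbers are not known to pair the samples, and deviations of same-numbered libraries had a correlation of 0.0247 over 12729 genes. With the replicate block 621 genes, 0 members (3 at an unadjusted P under 0.05) and 8 Myc-induced targets passed. With each library left out, from 23 to 7925 genes, 0 to 6 members and 0 to 28 Myc-induced targets passed. The lowest counts came from leaving out a control, where the lone control library is assumed to vary like the *Eya1*cKO pair, and the highest from leaving out an *Eya1*cKO library, where the spread is that of the control pair. *Mxd1* ranged from -0.35 to 0.20 on the log2 scale and reversed without *Eya1*cKO 1. The cause was not tested. The lists of cofactors and of turnover genes, each with 5 calls, had 3 without the low-count filter and with the legacy method, and the cofactors had 3 with the control counts thinned. With the replicate block the calls were 2 for cofactors, 3 for turnover genes, 1 for corepressors, 0 for the Mga complex and 1 for Myc-repressed targets. With the longest transcript as the length, chosen after seeing the data, the *Mycn* share differed by -11.1 percentage points. Each of the 10 genes had 323 reads or more in every library.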
